A study of Mus musculus with 4 samples.

Results

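The genes described here are the TAM receptor tyrosine kinases Axl, Mertk and Tyro3, their ligands Gas6 and Pros1, the caveolins Cav1 and Cav2, and the membrane-remodelling ATPases Ehd1, Ehd2 and Ehd4. They were taken by name, and all their single-gene probe sets were used, 21 of 34945 on the array, for 10 of 18193 genes. The set was chosen by its in vitro values, namely the higher signal of Axl, Ehd2 and Cav2 in the in vitro deleted array, so the in vitro differences of its members are a description. Transcripts were measured on 4 expression arrays of RNA from mouse fibroblasts of the skin, all labelled with a C57BL/6 background. In the in vitro pair, the cells labelled as deleted for Rbpj were given Adeno Cre (an adenovirus with Cre recombinase), and the control cells were given Adeno GFP. Whether the cells of that pair carry a floxed Rbpj gene is not stated in the labels. In the in vivo pair, the deleted cells came from a ColI Cre x RBP loxp-loxp cross and the control cells from RBP loxp-loxp mice without Cre, so both in vivo arrays carry the floxed gene. The labels are the only sources on the groups. Which cells the ColI Cre acts in, how many animals or cultures entered a sample, and the age of the mice are not stated there. Rbpj encodes RBP-J kappa, the DNA-bound partner of activated Notch receptors. Each group is represented by 1 array, so no difference below has a replicate check, and none carries a p-value.

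TAM receptors sit in the plasma membrane and are activated by Gas6, and some of them also by protein S, the product of Pros1. These vitamin K-dependent proteins bind phosphatidylserine on dying cells at one end and the receptor at the other, and so link signalling to the uptake of cell debris. Caveolae are flask-shaped pits of the plasma membrane that are abundant in fibroblasts, adipocytes, muscle and endothelium. Caveolin-1 is needed to form them outside muscle, caveolin-2 assembles with it, cavins form a coat around them, and EHD2 sits at their neck and holds them at the surface. EHD1 and EHD4 act on endosomes, where they help to recycle receptors.

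Promoter windows are shown for the members with the largest differences, Axl, Cav2 and Ehd2 in vitro and Gas6 in vivo, because these are the genes the comparisons turn on. The sequences are RefSeq's (GRCm38.p6), run from 250 bases before the annotated start to 50 bases after it, and read 5′ to 3′ along the gene. Capitals mark the letters of 4 motifs searched on both strands: the RBP-J core GTGGGAA, the AP-1 site TGANTCA, the GC box GGGCGG and the TEAD site GGAATG.
Axl, chr7:25788684-25788983, minus strand: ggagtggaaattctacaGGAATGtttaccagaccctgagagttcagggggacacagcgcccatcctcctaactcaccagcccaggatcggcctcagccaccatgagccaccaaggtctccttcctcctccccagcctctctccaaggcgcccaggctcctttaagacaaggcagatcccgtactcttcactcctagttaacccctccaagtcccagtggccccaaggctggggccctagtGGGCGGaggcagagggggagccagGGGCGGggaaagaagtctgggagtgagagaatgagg
Cav2, chr6:17280935-17281234, plus strand: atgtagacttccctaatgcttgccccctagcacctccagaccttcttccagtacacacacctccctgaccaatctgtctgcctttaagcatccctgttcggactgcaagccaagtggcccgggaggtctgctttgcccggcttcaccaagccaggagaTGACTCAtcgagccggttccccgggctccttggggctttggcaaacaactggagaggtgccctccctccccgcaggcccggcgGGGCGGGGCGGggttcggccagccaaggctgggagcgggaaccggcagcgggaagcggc
Ehd2, chr7:15967486-15967785, minus strand: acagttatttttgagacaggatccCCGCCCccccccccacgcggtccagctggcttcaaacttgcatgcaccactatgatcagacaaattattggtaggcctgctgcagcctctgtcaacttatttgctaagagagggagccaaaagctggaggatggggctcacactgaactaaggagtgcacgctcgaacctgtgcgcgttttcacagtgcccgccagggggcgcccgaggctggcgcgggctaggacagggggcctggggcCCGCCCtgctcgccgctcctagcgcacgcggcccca
Gas6, chr8:13494486-13494785, minus strand: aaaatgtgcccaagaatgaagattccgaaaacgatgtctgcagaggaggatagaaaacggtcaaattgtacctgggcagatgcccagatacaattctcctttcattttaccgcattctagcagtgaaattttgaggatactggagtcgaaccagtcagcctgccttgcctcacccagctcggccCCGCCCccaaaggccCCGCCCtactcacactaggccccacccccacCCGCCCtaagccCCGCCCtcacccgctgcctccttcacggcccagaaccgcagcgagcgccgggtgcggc
A window was found for 9 of the 10 genes, with 2 for Cav1 and none matched for Ehd1, which made 10 windows. The RBP-J core was in none of them, against 6.38% of the 32851 windows in the table. GC boxes were found in the windows of all 9 genes, though not in the second Cav1 window, and in 35.7% of all windows. Axl had a GC box starting 10 bases before the annotated start and another at position 15 after it, while Gas6 had 4, between positions -66 and -8. Only the Cav2 window held the AP-1 letters, at position -92 (7.81% of all windows), and only the Axl window held the TEAD letters, at position -233 (14.7% of all windows). The looser E-box letters CANNTG, not marked above, were absent from the windows of Axl, Mertk, Tyro3 and Ehd4, against 72.3% of all windows that hold them. The 10 windows held 58.3% (Gas6) to 73.3% (Tyro3) of G and C letters, against a median of 52.7% over all windows. The shares of all windows are not matched for this. The motif matches describe the letters in short windows and say nothing of binding.

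Signals are log2 values after quantile normalization over the 4 arrays, and each difference is the deleted array minus its control. A gene is represented by its brightest probe set unless the text says otherwise. The level filter below is the 40th percentile of the gene means (5.28). It kept 10916 genes, and all 10 members were among them. Mertk was the nearest to it, with a mean of 5.35. The check of the labels gave lower Rbpj on both brighter probe sets in vitro (-1.11 and -1.34) and smaller differences in vivo (-0.10 and -0.83), and the dimmest probe set gave 0.10 and -0.49. The fibroblast label was matched by 8 of 8 marker genes above the level filter on every array, Col1a1 among them at 13.55 to 13.72. The in vitro arrays correlated at 0.983 with each other, the in vivo arrays at 0.982, and arrays of different systems at 0.949 to 0.963. Culture system and batch of arrays cannot be told apart.

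One array stood apart in RNA quality. The labelling starts at the poly(A) tail, so broken RNA loses signal from probe sets far from the 3′ end. In the in vitro control, the Gapdh probe set at the 3′ end exceeded the one at the 5′ end by 1.0 (log2), against 0.02 in the in vitro deleted array and 0.13 and 0.14 in vivo. For Actb the excess was 1.11 in the in vitro control and 0.15 to 0.41 on the other arrays. For Pcx it was 3.16 there and 0.83 to 2.01 elsewhere, while Tfrc went the other way, with its lowest value (0.96) in the in vitro control. Every in vitro difference below uses that control, and each comparison has 1 array on either side, so none can be given without it.

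**Figure D1:**
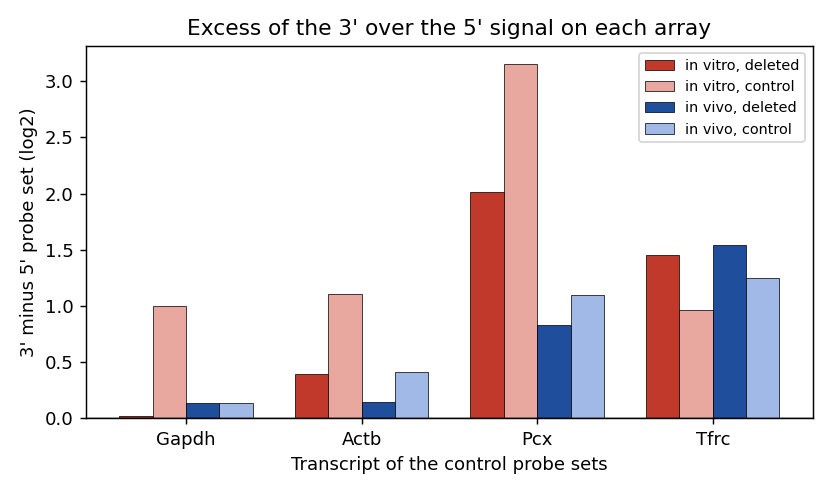
Excess of the 3′ over the 5′ probe set (log2, vertical axis) for 4 control transcripts (horizontal axis) on each of the 4 arrays, as bars. The in vitro control has the tallest bar for Gapdh, Actb and Pcx (1.0, 1.11 and 3.16) and the shortest for Tfrc (0.96).

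In vitro, 3 of the 10 genes were at least 2-fold higher in the deleted array (Ehd2, Axl and Cav2) and 0 were at least 2-fold lower. Of all genes above the filter, 0.788% were at least 2-fold higher and 1.15% lower, and nothing is read from the comparison of these shares, because the in vitro values chose the set. Genes higher made up 40.8% of all genes past 2-fold, against 56.7% after loess normalization within the pair, 55.9% after centring on the median difference and 60.8% with the trend on gene length removed. The rule of choice names no in vivo values, but earlier results of these data were known when the members were chosen. In vivo, 0 of 10 were at least 2-fold higher (background 2.81%) and 1 of 10, Gas6, was at least 2-fold lower (background 3.81%). The median difference of the 10 genes was 0.18 in vitro and -0.03 in vivo, beside -0.06 and -0.03 over all genes above the filter.

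**Figure D2:**
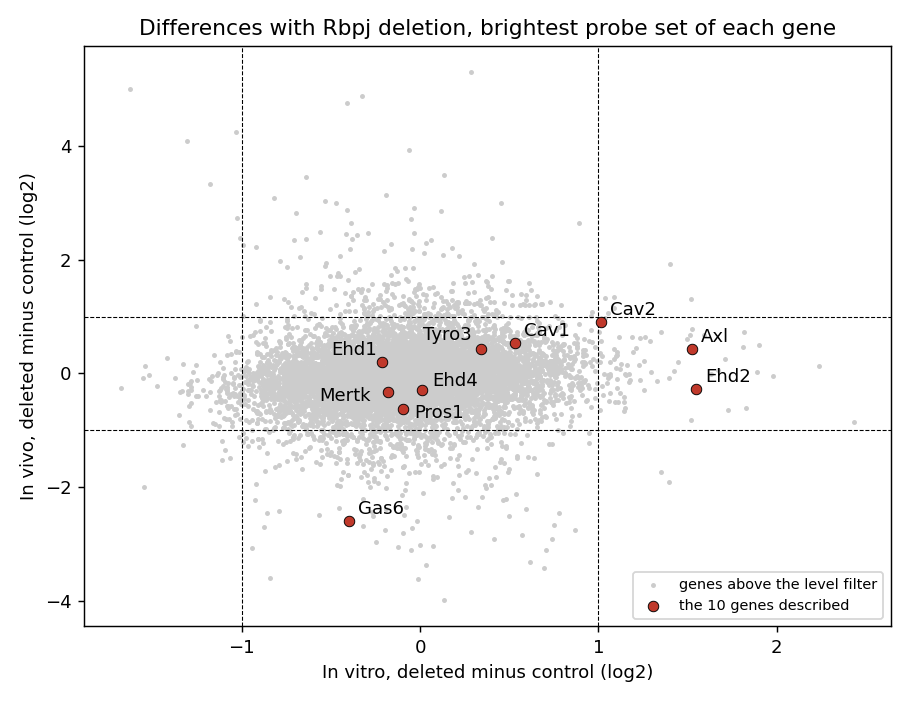
In vitro difference (log2, horizontal axis) against in vivo difference (log2, vertical axis) for each gene above the level filter (grey) and the 10 genes described (red), with dashed lines at 2-fold. Axl and Ehd2 lie at 1.52 and 1.55 in vitro, Cav2 near 1 on both axes, and Gas6 at -2.60 in vivo.

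Axl, the receptor with the highest affinity for Gas6, read 11.35 in the in vitro deleted array, 9.83 in its control, 11.68 in the in vivo deleted array and 11.25 in the in vivo control. The in vitro control was thus the low array, 1.60 below the mean of the others, and the remaining arrays lay close together. The in vitro difference was 1.52 (2.87-fold higher), the 15th highest of 10916 genes, and the in vivo difference was 0.43 (1.35-fold higher), the 1338th highest. Of all genes above the filter, 20.3% had their lowest value in the in vitro control. Among the 86 genes at least 2-fold higher in vitro, 57 did (66.3%), but that choice puts the control under its deleted array and so raises the share. The other Axl probe set, 1438621_x_at, read 3.30 to 3.47 and lay under the filter on every array, so it gives no measure of the difference.

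Tyro3 and Mertk, the other TAM receptors, lay near the bottom of the measurable range. The brighter Tyro3 probe set read 6.01 and 5.66 in vitro (deleted, control) and 6.77 and 6.34 in vivo, which are differences of 0.34 and 0.43. The dimmer one gave 0.04 and 0.18. On the dimmer probe set the in vitro value is far under the median SD between probe sets of a gene (0.28) and the in vivo control read 5.12, under the filter, so it bears little on the direction. On the brighter one Tyro3 was higher in both deleted arrays, by less than 2-fold, and its lowest value was again the in vitro control. Mertk, the receptor best known from macrophages and the retina, read 5.42 and 5.60 in vitro and 5.04 and 5.35 in vivo, with differences of -0.18 and -0.32. Its in vivo deleted signal was under the filter, so the size of that difference is not exact. Of 10 macrophage markers 6 were under the level filter, among them Adgre1, Itgam and Ptprc. Csf1r, the receptor for macrophage colony-stimulating factor, read 7.05 and 6.87 in vitro and 7.40 and 7.20 in vivo. Lyz2, a lysozyme of macrophages and neutrophils, read 8.48 and 8.76 in vitro and 6.73 and 7.80 in vivo, with differences of -0.28 and -1.06 (2.09-fold lower in vivo).

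Gas6, the ligand of all TAM receptors, had the largest difference of the set. It read 10.96 in the in vitro deleted array, 11.36 in its control, 9.02 in the in vivo deleted array and 11.62 in the in vivo control. The in vivo deleted array stood alone, 2.29 below the mean of the other arrays, which spanned less than 1 log2 unit. The in vivo difference was -2.60 (6.05-fold lower), the 26th lowest of 10916 genes, and the in vitro difference was -0.40 (1.32-fold lower). A second Gas6 probe set, 1459585_at, read 4.89 to 5.30, under the filter on 3 of 4 arrays, with differences of -0.19 in both systems. Pros1, which encodes protein S, read 9.49 and 9.59 in vitro and 9.30 and 9.93 in vivo. It was lower by 1.54-fold in the in vivo deleted array (-0.63) and differed by -0.09 in vitro. On their brightest probe sets both ligand genes had their lowest signal in the in vivo deleted array, as did 29.5% of all genes above the filter. Of the 416 genes at least 2-fold lower in vivo, 373 did (89.7%), but that choice puts the deleted array under its control and so raises the share. The brightest probe sets of Axl and Tyro3 had their highest signal in the in vivo deleted array.

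Markers of other cell types differed between the arrays of each pair, and in bulk RNA fewer cells of a type and less RNA per cell cannot be told apart. Of 10 keratinocyte markers, 7 passed the level filter. In vivo 5 of the 7 were at least 2-fold higher in the deleted array (background 2.81%), and the summed linear signal of the list was 4471 there against 524 in the control. In vitro they lay the other way: 6 of 7 were lower in the deleted array, where 42.5% of all genes were higher. Of the 7, 3 were at least 2-fold lower (background 1.15%). They were the basal epidermal keratins Krt14 (-1.62, with probe sets up to -0.02) and Krt5 (-1.03) and the keratin Krt17 (-1.30, deleted signal under the filter). In vitro the list summed to 763 (deleted) and 1218 (control). Of 8 skeletal muscle markers, 7 passed, 6 of them at least 2-fold higher in the in vivo deleted array (background 2.81%), with sums of 3371 and 729. The filter takes the mean over the 4 arrays, so a high in vivo deleted signal can by itself carry a marker past it. Myh3 read 7.77 on that array and 4.02, 4.72 and 5.42 on the others, and Dsp 7.98 against 5.42, 5.83 and 3.23. The in vivo counts of keratinocyte and muscle markers past 2-fold are thus partly set by the filter. The macrophage list summed to 487 in the in vivo deleted array and 587 in its control. Of its 4 markers above the filter, 2 were higher and 2 lower in vivo, with a median of -0.01 (46.4% of all genes were higher). Lyz2 was at -1.06 and Csf1r at 0.21, so the lower sum does not hold for the list as a whole. Fibroblast markers summed to 47495 in the in vivo deleted array and 49071 in the control. Of them 6 of 8 were lower, with a median of -0.11, where 46.4% of all genes were higher. Col1a1, Col1a2 and Col3a1 weigh most in these sums, at 13.12 to 13.72 in vivo, near the top of the scale. Of the 8 markers, the proteoglycan gene Lum was at -1.06, Fbln1 at -0.65 and the receptor Pdgfra at -0.59. Col1a1 (0.15) and Dcn (0.12) were the 2 with a higher signal. The part of these other cells in the in vivo difference of Gas6, or in the in vitro differences of Axl, Ehd2 and Cav2, was not tested.

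**Figure D3:**
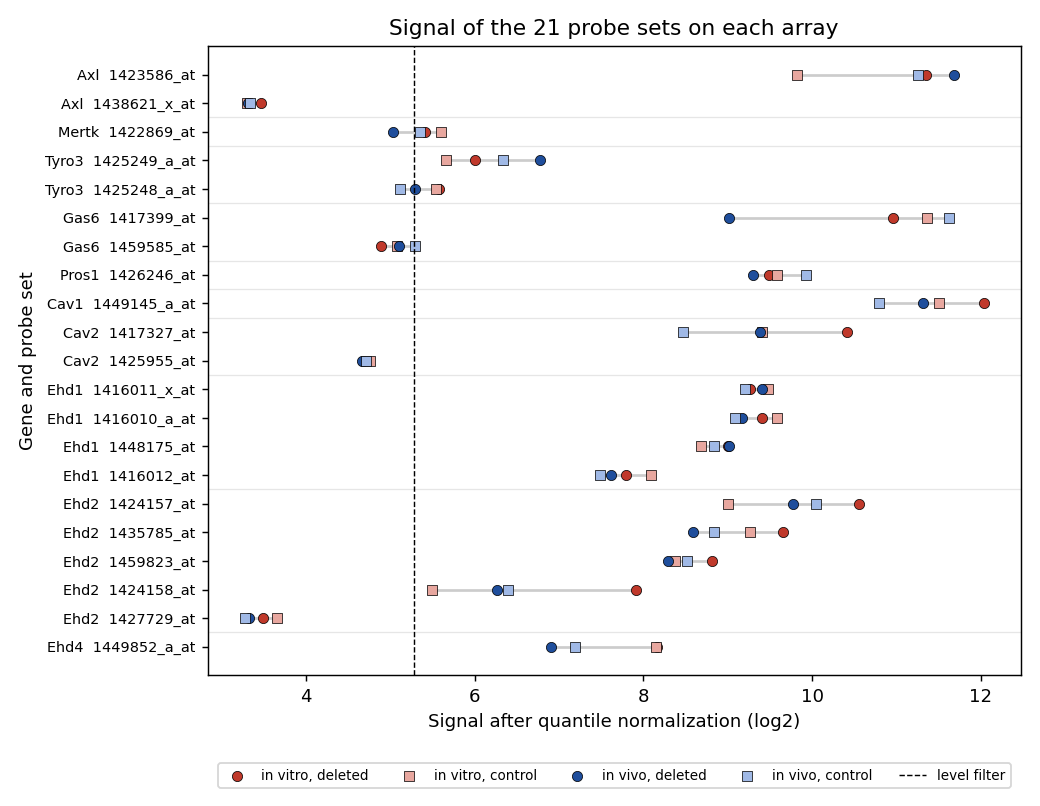
Quantile-normalized signal (log2, horizontal axis) of each of the 21 probe sets (rows) on the 4 arrays, with circles for deleted and squares for control arrays, red in vitro and blue in vivo, and a dashed line at the level filter. The in vitro control lies far left for Axl 1423586_at (9.83) and Ehd2 1424158_at (5.50), and the in vivo deleted array far left for Gas6 1417399_at (9.02).

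The caveolin genes were higher in the deleted array of both systems. Cav1, the main structural protein of caveolae, read 12.03 and 11.50 in vitro and 11.32 and 10.79 in vivo, with a difference of 0.53 in each system (1.45-fold and 1.44-fold higher). Cav2 read 10.41 and 9.40 in vitro and 9.38 and 8.47 in vivo, and was higher by 1.01 (2.02-fold) and 0.91 (1.88-fold). Cav2 stood at the 2-fold threshold in vitro: its difference was 0.92 with the values as deposited and 0.98 with loess normalization, and both fall short of it. Cav1 was the nearest member on the other side of the threshold. In each system the deleted array exceeded its own control, but the in vivo deleted and in vitro control signals of Cav2 nearly coincided.

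Cav1 is the next protein-coding gene after Cav2 on chromosome 6 in the RefSeq table. The second Cav2 probe set, 1425955_at, read 4.66 to 4.76, under the filter on all arrays, and taking the median of the pair in place of the brighter gives Cav2 0.47 (in vitro) and 0.43 (in vivo). Markers of other cells rich in caveolae are given for comparison. Of the 7 adipocyte markers 5 had a probe set, and 3 of those were above the filter. The list summed to 5734 (deleted) and 6102 (control) in vitro and to 1921 and 1493 in vivo. Adiponectin (Adipoq) differed by -0.11 in vitro and 0.70 in vivo. Of 8 endothelial markers 6 were under the filter, Pecam1, Cdh5 and Cldn5 among them. The muscle markers above were higher in the in vivo deleted array and not in vitro, where 5 of 7 were lower (42.5% of all genes were higher there). In the in vitro deleted array 5 of the 8 muscle markers read under the filter, so the in vitro direction is uncertain for those. The part of the muscle markers in the in vivo caveolin values was not tested.

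Ehd2, the ATPase of the caveolar neck, was measured by the most probe sets, and they disagreed in vitro. The brightest, 1424157_at, read 10.55 in the in vitro deleted array, 9.00 in its control, 9.78 in the in vivo deleted array and 10.05 in the in vivo control. Its in vitro difference was 1.55 (2.93-fold higher), the 14th highest of all genes above the filter. Probe set 1424158_at read 7.91, 5.50, 6.27 and 6.39 in the same order and differed by 2.41 (5.31-fold). On both of these the in vitro control was the lowest of the 4 arrays.

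The remaining probe sets of Ehd2 gave smaller in vitro values. Probe set 1435785_at read 9.65 and 9.26 in vitro (0.39), and 1459823_at read 8.81 and 8.37 (0.44), and on both the lowest array was the in vivo deleted one. The fifth, 1427729_at, was under the filter on all arrays (3.28 to 3.66). Over all 5 probe sets, this one included, the in vitro mean was 0.92 ± 1.04 (SD over probe sets, a technical spread). In vivo the probe sets were close to each other, at -0.27, -0.25, -0.22 and -0.13 for those above the filter, so Ehd2 was slightly lower in the in vivo deleted array on each of them.

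Ehd1 and Ehd4, the endosomal members, differed little. The 4 probe sets of Ehd1 lay between -0.30 and 0.32 in vitro, where 1448175_at was the one with a higher deleted signal, and between 0.09 and 0.20 in vivo. Its brightest, 1416011_x_at, whose suffix marks probes that may bind related transcripts, read 9.26 and 9.48 in vitro and 9.40 and 9.20 in vivo. Ehd4 read 8.16 and 8.15 in vitro and 6.90 and 7.19 in vivo, with differences of 0.01 and -0.29. For Ehd4 the systems lay further apart than deleted and control: the in vivo control was 0.96 below the in vitro control. Ehd3, the family member outside the set, differed by -0.20 and 0.25.

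**Figure D4:**
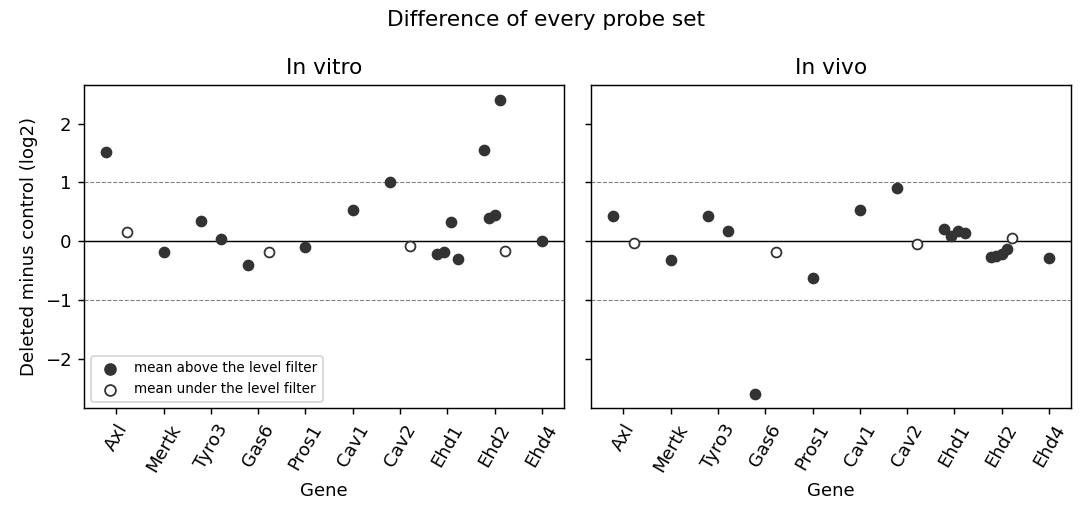
Deleted minus control difference (log2, vertical axis) of every probe set of the 10 genes (horizontal axis), in vitro on the left and in vivo on the right, filled where the mean signal passed the level filter and open where it did not, with dashed lines at 2-fold. The 4 filled points of Ehd2 spread between 0.39 and 2.41 in vitro and between -0.27 and -0.13 in vivo.

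Disagreement between probe sets was general in the in vitro comparison. Of the 6856 genes above the filter with several probe sets, 659 (9.61%) had a brightest probe set under 2-fold higher while another was at least 2-fold higher, against 81 (1.18%) in the lower direction. The same counts in vivo were 119 (1.74%) and 78 (1.14%). Over single probe sets without a filter, 2.5% were at least 2-fold higher in vitro and 0.641% lower, against 1.65% and 1.79% in vivo. The median SD between the probe sets of a gene was 0.28 in vitro and 0.17 in vivo. In vitro differences also followed gene length, with a Spearman rho of 0.259 over 10889 genes (in vivo -0.0395), given as a description since genes are not independent replicates. With that trend removed, the in vitro differences of Axl, Ehd2 and Cav2 were 1.53, 1.61 and 1.20. The distance of each probe set from the 3′ end was not used here, and the part of RNA quality in the values of Axl and Ehd2 was not tested.

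Lists of 6 related pathways held 105 genes, of which 101 had a probe set and 91 passed the level filter. Past 2-fold were 1 gene higher and 0 lower in vitro (background 0.788% and 1.15%), and 0 higher and 2 lower in vivo (background 2.81% and 3.81%). The single gene higher in vitro was Gulp1, an engulfment adaptor (1.52, with probe sets from 0.75 to 3.14), which differed by -0.81 in vivo. Those lower in vivo were Ehbp1, an EHD-binding protein that links vesicles to actin (-1.33), and Dnm1, a dynamin that cuts vesicles from the membrane (-1.31, with a second probe set at -0.83). Ehbp1 read 7.53 and 8.05 in vitro and 6.18 and 7.51 in vivo. Dnm1 read 9.19 and 8.82 in vitro and 8.49 and 9.80 in vivo. Other probe sets went past 2-fold where the brightest did not. Of the 65 list genes with several probe sets, 16 (24.6%) had another at least 2-fold higher in vitro, beside 9.61% of all such genes, and 4 (6.15%) had another at least 2-fold lower in vivo, beside 1.14%. The shares of all such genes are not matched for the number of probe sets per gene, which was 9 for Itsn1 and 7 for Dnm2. A gene with more probe sets is more likely to be counted, so nothing is read from the comparison. Of all genes above the filter, 42.5% had a higher signal in the deleted array in vitro and 46.4% in vivo, and the direction counts of the lists below stand beside those shares.

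Genes that mature the TAM ligands or shed the receptors had medians of 0.02 in vitro (5 of 9 higher) and -0.24 in vivo (7 of 9 lower), 0 of them past 2-fold. Ggcx, the vitamin K-dependent carboxylase that Gas6 and protein S require, read 8.14 and 7.19 in vitro and 7.21 and 7.80 in vivo, with differences of 0.96 and -0.59. Its 2 probe sets agreed, at 0.85 and 0.96 in vitro and at -0.63 and -0.59 in vivo. Vkorc1, which regenerates reduced vitamin K, differed by -0.57 and -0.38, and its relative Vkorc1l1 by 0.87 and -0.08. Furin, a proprotein convertase, differed by -0.48 in vitro and 0.57 in vivo. Adam10, a protease that sheds membrane receptors, was at 0.03 and -0.42, although its in vitro probe sets reached 2.15.

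Efferocytosis genes, which serve the uptake of dying cells, had medians of 0.01 in vitro (10 of 17 higher) and -0.09 in vivo (10 of 17 lower). In vitro the scavenger receptor Cd36 was at 0.92 and the integrin Itgb3 at -0.83, with probe sets from 0.16 to 0.92 and from -0.83 to 0.29. In vivo the scavenger receptor Stab1 was at 0.98 (control under the filter) and the engulfment receptor Megf10 at -0.91. Signalling partners of Axl had medians of 0.11 and -0.16. Dock1, a guanine nucleotide exchange factor for Rac, differed by 0.60 and -0.58 (second probe set at 1.15 and 0.21). Its partner Elmo2 differed by 0.55 and -0.21, with a second probe set at -0.16 in vitro. The focal adhesion protein Vcl differed by 0.53 and -0.35, with a second Vcl probe set at 3.73 in vitro. The adaptor Nck1 (-0.81, with probe sets up to 0.36) and the transcription factor Twist1 (-0.78) were lower in vivo.

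Caveolar coat and accessory genes had medians of 0.15 in vitro (4 of 8 higher) and -0.04 in vivo (3 of 8 higher), beside the higher caveolin values. Cavin1, the coat protein that caveolae require, read 10.69 and 10.74 in vitro and 10.26 and 10.51 in vivo, with differences of -0.05 and -0.25 (probe sets up to 1.74 in vitro). Cavin3 was at -0.09 and -0.39. Cavin2 was at 0.38 and -0.05 on its brightest probe set, with in vivo probe sets up to 0.97. Pacsin3, a membrane-bending protein, was at -0.99 in vitro and the vesicle-cutting dynamin Dnm2 at 0.62 (probe sets 0.15 to 3.20). The receptor Ror1 was at 0.44 in vitro and -0.67 in vivo. Both in vivo signals of Ror1 (4.38 and 5.05) were under the filter, and its in vivo probe sets reached 0.08. Cav3 and Cavin4, the muscle forms, did not pass the level filter, which takes the mean over the 4 arrays. In the in vivo deleted array alone they read above its cutoff, at 5.49 and 5.80, against 4.65 and 4.62 in the control. The control signals were under the cutoff, so the sizes of these in vivo differences (0.85 and 1.18) are not exact. The higher signal of both genes in the in vivo deleted array lies beside the higher muscle markers given above.

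EHD partners and recycling endosome genes had medians of 0.04 in vitro (12 of 19 higher) and -0.05 in vivo (11 of 19 lower). In vitro the membrane repair protein Myof was at 0.72, Vps35, a retromer subunit, at 0.58 (second probe set at 2.69) and Mical1 at -0.59. In vivo, beside Ehbp1, Rab11fip2 was at -0.50 (probe sets up to 0.17) and the GTPase Rab35 at 0.46. Clathrin endocytosis and curvature genes had medians of 0.14 (16 of 24 higher) and -0.10 (14 of 24 lower). The adaptor subunit Ap2b1 (0.92, with probe sets down to -0.11), the clathrin heavy chain Cltc (0.62, second probe set at -0.36) and the epsin Epn1 (-0.80) differed most in vitro. Dnm3 (-0.90) and the phosphatase Synj1 (-0.83) followed Dnm1 in vivo, with probe sets up to 0.10 and 0.11.

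**Figure D5:**
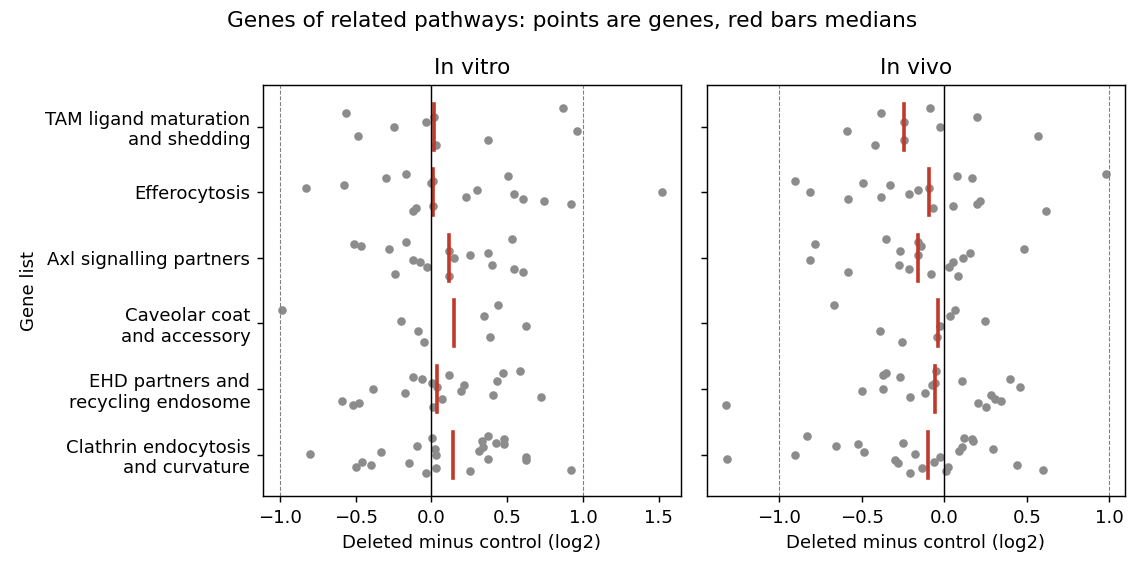
Deleted minus control difference (log2, horizontal axis) of the genes above the level filter in 6 pathway lists (rows), in vitro on the left and in vivo on the right; points are genes, red bars are list medians and dashed lines mark 2-fold. The list medians lie between 0.01 and 0.15 in vitro and between -0.24 and -0.04 in vivo.

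Likeness to Axl was measured as the Euclidean distance between centred log2 values over the 4 arrays, with a median of 1.53 over the 10915 other genes. The nearest genes were Il13ra1 (distance 0.25), Snrpd3 (0.25), Eif4a1 (0.32), Zdhhc5 (0.33) and Chd1 (0.33). As follows from this choice, each had its lowest signal in the in vitro control and its highest in the in vivo deleted array, as Axl did. Their in vitro differences were 1.09 to 1.81. Among the members, Tyro3 was the 145th nearest gene to Axl (0.85) and Ehd2 the 205th (0.90). Cav1 and Cav2 were closest to each other of any pair with a caveolin (0.51), yet Cav2 was only the 492nd nearest gene to Cav1. With 4 points per gene, such distances describe these arrays and carry no test.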

How the data were processed

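Log2 expression values for 45101 probe sets on 4 arrays were used as deposited by the authors. The log2 scale was read from their range (2.87 to 13.79). The software and normalization behind them are not given in the sources used here. Biotin-labelled cRNA was made from T7 oligo(dT)-primed poly(A) RNA, per the labels. Names came from the platform annotation (34945 with 1 gene symbol, 932 with several and not named, 9211 unnamed), and 34741 matched RefSeq (GRCm38.p6) for current symbols and gene spans. The 64 control probe sets were kept apart.

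Columns were quantile normalized with Python 3.11.15, numpy 2.4.6 and pandas 2.3.3. Each gene took its brightest probe set, with the level filter at the 40th percentile of gene means and a threshold of 2-fold. No test was made, since each group has 1 array, and the number of arrays limits the precision. Alternatives were the deposited values, loess within pairs and removal of a length trend (statsmodels 0.14.6), median centring, an added constant, other filters and thresholds, medians over probe sets, and removal of _x_at and _s_at probe sets. The procedure was tested on simulated data.

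The members and lists were chosen with earlier results of these data known. Named genes were all members, Rbpj, up to 3 members per list and comparison with the largest differences above the filter, and the 5 genes nearest to Axl. Ehd3, Cavin2, Cav3, Cavin4, Adipoq, Csf1r, Lyz2, the fibroblast markers, the keratins and the markers under the filter were named after their values were seen. Some genes of the lists were not analysed here.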

Additional observations from a re-analysis of the deposited data

Results flagged for a closer look

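On their brightest probe sets, members of the EHD family had differences of opposite sign in the 2 systems, each with 1 array per group, and the difference between systems was not tested. Ehd2 was at 1.55 in vitro and -0.27 in vivo. Ehd1 was at -0.21 in vitro and 0.20 in vivo, and Ehd4 at 0.010 and -0.29. The opposite sign did not hold throughout: Ehd1 probe set 1448175_at was at 0.32 and 0.17, and Ehd4 was at -0.03 in vitro with the length trend removed. The values of Ehd1 and the in vitro value of Ehd4 are close to the median SD between probe sets of a gene (0.28 in vitro, 0.17 in vivo) or under it.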

How the results depend on the processing

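No paired analysis was possible because each group has 1 array, and no array could be left out. Every alternative kept the direction of Axl, Ehd2, Cav2 and Cav1 in vitro (all higher) and of Gas6 in vivo (lower). Of the 10 members only Ehd4 in vitro changed sign, between -0.03 and 0.07. A value counts here as moved when it changes by more than the median SD between the probe sets of a gene, and a count when it changes by more than 1.5 times. With the median of all probe sets, which takes in those under the level filter, Axl was at 0.84, Cav2 at 0.47 and Ehd2 at 0.44 in vitro, Gas6, Cav2 and Axl were at -1.39, 0.43 and 0.20 in vivo, 0 members were 2-fold higher in vitro, and 275 of all genes were 2-fold lower in vivo. With the median of probe sets above the filter, an alternative chosen after seeing the data, Ehd2 was at 0.99 and 146 of all genes were higher in vitro, while Axl, Cav2 and Gas6 kept their values. The 2-fold call of Cav2 in vitro ended with the deposited values (0.92), loess (0.98) and the added constant (0.996), which left 2 members higher. The number of all genes 2-fold lower in vitro was 77 with loess, 83 after centring, 80 with the added constant and 62 with the length trend removed, against 125. The 60th percentile filter left 161 genes higher in vivo. At 1.5-fold, 557 genes were higher and 1054 lower in vitro, 875 and 1226 in vivo, and 1 member was higher and 2 lower in vivo. At 3-fold these counts were 13 and 2 in vitro and 80 and 112 in vivo, with 0 members higher in vitro. Why values moved was not tested beyond what each alternative leaves out. Signal near the level filter limits Mertk and Tyro3 most.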
